A study of Sus scrofa with 14 samples.

Results

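UCP2, UCP3, PPARGC1A, PPARGC1B, ESRRG, PRDM16, DIO2 and CIDEA, 8 genes of heat production in fat, were taken by name in an expression and Hi-C series on pig adipose tissue. The symbols were matched through Ensembl gene identifiers, and the rule uses no measured value, although the set was drawn up with earlier results of these data known. Expression was analysed for 7 of the 8, among 21280 protein-coding genes, and chromatin position for all 8. The expression of CIDEA, a lipid droplet protein abundant in brown fat, and of UCP1 was not analysed here.

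The series compared the greater omentum (GOM), a visceral depot, and the upper layer of backfat (ULB), a subcutaneous depot, in 2 wild boars and 2 Bama pigs, a small Chinese domestic breed. All animals were 2-year-old females kept on one farm under the same feeding, and all were fasted before they were killed. The wild boars had been brought into captivity early in life, so that neither breed was sampled in the wild. Apart from the fast, the sources used here state no cold exposure or other treatment. Each breed and depot was represented by 2 RNA-seq and 2 Hi-C libraries, except Bama pig ULB with 1 of each, named replicate 2. Both depots came from the same animals, and whether a replicate number marks an animal is not stated in the sources used here.

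Brown and beige fat cells make heat by letting protons leak across the inner mitochondrial membrane through UCP1. Cold reaches these cells as noradrenaline, which raises cyclic AMP, activates DIO2 and the coactivator PPARGC1A, and through them increases thyroid hormone action and the building of mitochondria, while PRDM16 directs precursor cells towards the brown and beige fate. Pigs lost a working UCP1 during evolution, and the remaining genes of this program can be read in their fat without it.

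Library totals ran from 10833153 to 18627076 estimated counts, and between 15587 and 17389 genes had a TPM (a level corrected for transcript length and library size) above 0.1. All 10 listed adipocyte markers were measured, with summed TPM of 10622 to 19416. Wild boar ULB replicate 1 stood apart in skeletal muscle transcripts, with 577.3 TPM over the 8 of 15 listed muscle markers that were measured, against 4.0 to 17.3 TPM in the other 6 libraries. Mesothelial markers (4 of 9 measured) summed to 119.2 to 456.1 TPM in GOM and to 3.0 to 17.1 TPM in ULB, with BNC1 at 0 in both wild boar ULB libraries and WT1 at 0 in one of them. Macrophage markers (11 of 12 measured) summed to 1000.6 to 2270.5 TPM in GOM and to 618.1 to 832.3 TPM in ULB, and LYZ was at 0 in all 4 GOM libraries and 1 ULB library. Bama pig GOM replicate 1 was nearer in rank to Bama pig ULB (Spearman's rho of 0.931 across genes) than to its own replicate (0.920). In such bulk tissue, fewer cells of a type and less RNA per cell cannot be told apart.

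Promoter windows are shown for UCP2, UCP3 and PPARGC1A, the 2 uncoupling protein genes of the set and the only member that passed the test between depots. Each window runs from 250 bases before to 50 bases after the start site of the curated RefSeq transcript on Sscrofa 11.1, all 3 on the minus strand. Capitals mark the letters TGACGTCA (the cyclic AMP response element), TGACG (its core) and AGGTCA (the core site of many nuclear receptors), searched on both strands, where the core TGACG is contained in the full element. PPARGC1A lies at chr8:17946885-17947184, UCP2 at chr9:8364503-8364802 and UCP3 at chr9:8389403-8389702.
PPARGC1A: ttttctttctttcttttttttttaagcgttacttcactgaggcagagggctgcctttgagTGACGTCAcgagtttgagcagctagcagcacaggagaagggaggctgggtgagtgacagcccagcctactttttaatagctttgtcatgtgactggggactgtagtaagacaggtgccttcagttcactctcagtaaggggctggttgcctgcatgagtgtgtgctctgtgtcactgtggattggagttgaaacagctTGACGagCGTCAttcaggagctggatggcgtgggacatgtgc
UCP2: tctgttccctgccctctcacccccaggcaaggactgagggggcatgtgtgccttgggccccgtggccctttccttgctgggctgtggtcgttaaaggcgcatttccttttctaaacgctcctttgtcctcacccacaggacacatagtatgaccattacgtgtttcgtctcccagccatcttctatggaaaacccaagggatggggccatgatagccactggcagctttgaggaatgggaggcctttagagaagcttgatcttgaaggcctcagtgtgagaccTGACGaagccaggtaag
UCP3: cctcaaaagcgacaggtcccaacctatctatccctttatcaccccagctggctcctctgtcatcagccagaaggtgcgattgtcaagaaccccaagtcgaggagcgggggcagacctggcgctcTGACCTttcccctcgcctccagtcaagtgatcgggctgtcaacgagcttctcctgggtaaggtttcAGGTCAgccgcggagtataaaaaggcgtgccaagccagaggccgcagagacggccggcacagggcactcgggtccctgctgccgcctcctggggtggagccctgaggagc
The full element stood at position -190 from the PPARGC1A start and in none of the other 7 members' windows, and 2.27% of 18688 promoters of this length held it. A pair of facing TGACG cores lay just after the PPARGC1A start, and 1 such core lay after the UCP2 start, against 24.2% of promoters with at least 1. The UCP3 window held AGGTCA at positions -126 and -60, a motif found in 14% of promoters. The 9-letter estrogen-related receptor motif TCAAGGTCA, found in 0.385% of promoters, was in none of the 8 windows. These matches are descriptions of letters and were not tested for binding.

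UCP2 and UCP3 encode mitochondrial carriers related to UCP1. UCP2 is widely expressed, including in macrophages, and UCP3 is best known from skeletal muscle and brown fat. The genes are neighbours on the minus strand of chromosome 9, UCP2 (ENSSSCG00000014833) at chr9:8358559-8364552 and UCP3 (ENSSSCG00000014834) at chr9:8378023-8389452, with 13.5 kb between them. UCP3 had the highest level of the measured members, with a median TPM of 54.87 over the 7 libraries, above 89.5% of all genes, and UCP2 came next with 6.0.

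UCP3 stood at 54.87 and 7.08 TPM in wild boar GOM and at 153.31 and 35.79 TPM in wild boar ULB. In Bama pigs it stood at 53.76 and 77.88 TPM in GOM and at 178.87 TPM in ULB. The 2 highest libraries were both ULB, but the third ULB library lay below 3 of the 4 GOM libraries, and replicates differed 7.75-fold in wild boar GOM and 4.28-fold in wild boar ULB. The fitted log2 difference, GOM minus ULB over both breeds, was -1.71 with a standard error of 0.66 (edgeR's quasi-likelihood test, adjusted p = 0.219), so UCP3 did not pass in this fit, which treats libraries as independent although both depots came from the same animals. Without wild boar ULB replicate 1, the library with muscle transcripts, the difference was -0.93 (edgeR's adjusted p = 0.605), and without wild boar GOM replicate 1, the higher of its pair, it was -2.67 (adjusted p = 0.0916), the ends of the range over the 6 libraries that could be left out. Bama pig ULB, the library with the highest UCP3 level, had muscle markers at 8.0 TPM. The part of muscle transcripts in the wild boar ULB value was not tested.

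UCP2 went the other way by its mean. It stood at 9.10 and 6.0 TPM in wild boar GOM, at 2.63 and 3.06 TPM in wild boar ULB, at 20.24 and 5.30 TPM in Bama pig GOM and at 8.19 TPM in Bama pig ULB. In wild boars both GOM libraries lay above both ULB libraries, and in Bama pigs the single ULB library lay between the 2 GOM libraries. The log2 difference was 0.89 over both breeds (standard error 0.49, adjusted p = 0.369), 1.65 within wild boars (standard error 0.62, adjusted p = 0.272) and 0.13 within Bama pigs (standard error 0.73, adjusted p = 0.966). The test of the difference between these depot differences gave 1.51 (standard error 0.93, adjusted p = 0.979). Without Bama pig GOM replicate 1, the highest library, the depot difference over both breeds was 0.30. The difference between the breeds' depot differences was then 2.7, in a fit that left Bama pig GOM without a replicate. Macrophage marker sums were higher in all GOM than in all ULB libraries. Of the single markers, only C1QA, C1QB, C1QC and PTPRC kept this order. MRC1 was highest in wild boar ULB replicate 2, at 207.0 TPM, and CD68 lowest in Bama pig GOM replicate 2, at 7.69 TPM. The part of macrophage transcripts in the UCP2 values was not tested.

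**Figure D1:**
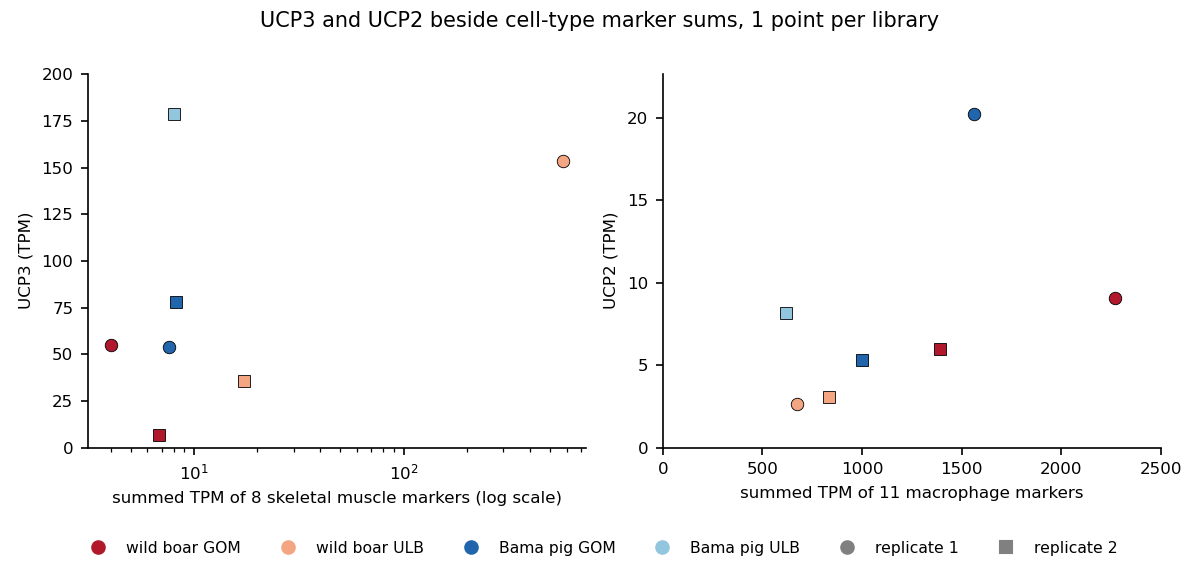
UCP3 TPM against the summed TPM of 8 skeletal muscle markers on a log axis (left) and UCP2 TPM against the summed TPM of 11 macrophage markers (right), 1 point per library. Wild boar ULB replicate 1 lies alone at 577.3 muscle TPM, while the highest UCP3 point, Bama pig ULB at 178.87 TPM, lies at 8.0.

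The coactivators PPARGC1A and PPARGC1B bind nuclear receptors and turn on genes of mitochondrial biogenesis and fatty acid oxidation, and ESRRG is an estrogen-related receptor through which they act. PPARGC1A (ENSSSCG00000029275, chr8:17841844-18527953, minus strand, with 7 annotated start sites) was the only member that passed the test between depots when libraries were treated as independent. It stood at 0.58 and 0.32 TPM in wild boar GOM and at 1.01 and 0.52 TPM in Bama pig GOM. In ULB it stood at 5.05 and 3.24 TPM in wild boars and at 4.57 TPM in the Bama pig. All 3 ULB libraries lay above all 4 GOM libraries, as they did for 2.68% of genes tested, and the estimated counts behind these values were 13 to 34 in GOM and 106 to 172 in ULB.

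The log2 difference of PPARGC1A, GOM minus ULB, was -3.03 (standard error 0.45), an 8.19-fold lower level in GOM (adjusted p = 0.0117 from edgeR's quasi-likelihood test). A gene was called where the adjusted p was below 0.05 and the log2 difference exceeded 1 in size. By this rule 1 of 7 members was called, beside 2.83% of the 17874 genes tested in either direction and 1.05% in this direction, and DESeq2 called the same member, beside 6.99% of genes. An unadjusted p below 0.05 was found for PPARGC1A and UCP3, beside 18.4% of genes. The difference was -3.02 in wild boars (standard error 0.62, adjusted p = 0.0563) and -3.05 in Bama pigs (standard error 0.67, adjusted p = 0.114), and neither passed alone, where 1.37% and 0.403% of genes were called. The single Bama pig ULB library was assumed to vary like the other groups. The difference between the breeds' depot differences was 0.04, with an interval of 2 standard errors on each side from -1.85 to 1.92. Without wild boar ULB replicate 1, the depot difference was -2.80 (adjusted p = 0.0484), and over the 6 libraries that could be left out it ranged from -3.26 to -2.80.

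PPARGC1B (ENSSSCG00000014437, chr2:150823338-150924871, plus strand) showed no such order. It stood at 3.62 and 0.93 TPM in wild boar GOM, at 2.71 and 1.08 TPM in wild boar ULB, at 3.23 and 4.73 TPM in Bama pig GOM and at 1.78 TPM in Bama pig ULB. The depots overlapped, with both the lowest value and the highest in GOM. Its log2 difference was 0.55 with an interval from -0.52 to 1.62 at 2 standard errors (adjusted p = 0.625 from edgeR's test).

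ESRRG (ENSSSCG00000010814, chr10:6710615-7371419, minus strand, with 17 annotated start sites) was near the limit of detection. It stood at 0.27 and 0.58 TPM in wild boar GOM, at 0.00 and 1.49 TPM in wild boar ULB, at 1.78 and 0.23 TPM in Bama pig GOM and at 0.43 TPM in Bama pig ULB. The counts were 4 to 38 in 6 libraries and 0 in wild boar ULB replicate 1, the only member value at or under the floor of 3 counts, which covers counting error only. Replicates of 1 group spanned most of the range, and a depot difference was not detectable at this depth (log2 difference 0.12, standard error 1.17).

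**Figure D2:**
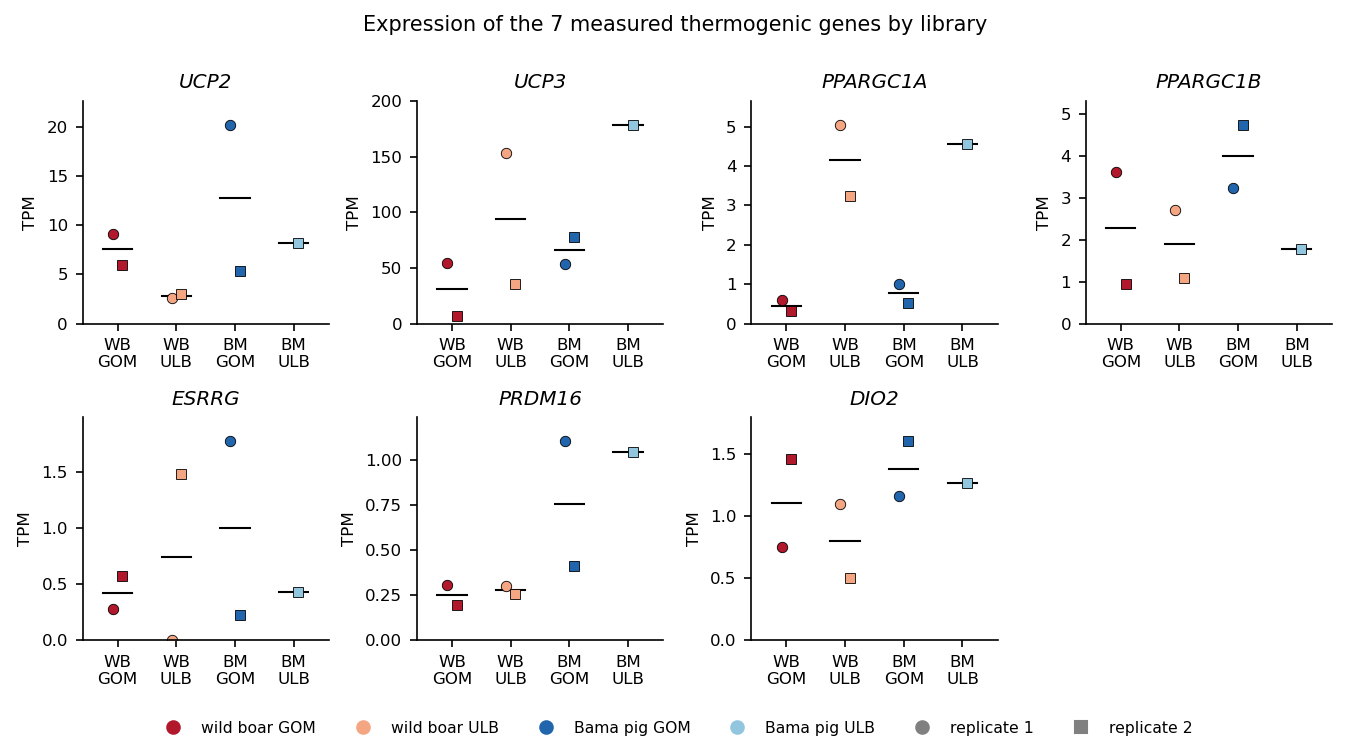
TPM of the 7 measured genes in each library on linear axes starting at 0, in wild boar (WB) and Bama pig (BM) GOM and ULB; points are libraries and bars group means. For PPARGC1A the 3 ULB points lie at 3.24 TPM and above and the 4 GOM points at 1.01 TPM and below, whereas the depots overlap in the other 6 genes.

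PRDM16 is a transcriptional regulator of brown and beige fate, and DIO2 converts thyroxine into active triiodothyronine within the cell. PRDM16 (ENSSSCG00000021490, chr6:64704181-65012580, plus strand) was the lowest member by its median of 0.30 TPM. Wild boars had 0.30 and 0.20 TPM in GOM and 0.30 and 0.25 TPM in ULB, against 1.10 and 0.41 TPM in GOM and 1.05 TPM in ULB of Bama pigs. All 3 Bama pig libraries lay above all 4 wild boar libraries, an order shown by 11.8% of the genes tested and reversed in 1.06%. The counts were 20 to 25 in wild boars and 28 to 92 in Bama pigs. The log2 difference, wild boar minus Bama pig, was -1.02 in GOM (standard error 0.74, adjusted p = 0.70) and -2.03 in ULB (edgeR's test, standard error 0.78, adjusted p = 0.29), and neither passed. One library decided the size of the GOM value, which was -0.21 without Bama pig GOM replicate 1 and -1.51 without Bama pig GOM replicate 2. Liver markers (9 of 10 measured) also summed higher in Bama pigs, to 292.4 to 1461.7 TPM against 186.6 to 260.2 TPM in wild boars, and their part in the PRDM16 values was not tested. Its depot difference was -0.46 (standard error 0.52).

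DIO2 (ENSSSCG00000040638, chr7:103096414-103110749, minus strand) varied least, 3.22-fold from lowest to highest. It stood at 0.75 and 1.46 TPM in wild boar GOM, at 1.10 and 0.50 TPM in wild boar ULB, at 1.16 and 1.60 TPM in Bama pig GOM and at 1.27 TPM in Bama pig ULB. Depots and breeds overlapped. The depot difference on the log2 scale was 0.19, with an interval of 2 standard errors on each side from -0.88 to 1.26.

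Ordered by median TPM, the members ran UCP3, UCP2 (6.0), PPARGC1B (2.71), DIO2 (1.16), PPARGC1A (1.01), ESRRG (0.43) and PRDM16. The ranges of each pair of neighbours overlapped. Within libraries, UCP3 lay above UCP2 in all 7, most closely in wild boar GOM replicate 2 (7.08 against 6.0 TPM). Each other pair of neighbours changed order in at least 1 library. All 7 members were above the floor of 3 counts in every library, except ESRRG in 1.

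Between breeds, no member passed in either depot. In GOM the log2 differences, wild boar minus Bama pig, ran from -1.02 (PRDM16) to 0.30 (DIO2), and 0 of 7 members were called by edgeR or DESeq2, beside 0.0241% and 1.01% of 16615 genes. None had an unadjusted p below 0.05, which 1329 of all genes had. In ULB, where 1 Bama pig library was assumed to vary like the other groups, 0 of 7 members were called by either tool, beside 0.252% of genes with edgeR and 2.34% with DESeq2. There PRDM16 and UCP2 had an unadjusted p below 0.05 in edgeR's test, as had 14.9% of genes. The UCP2 difference was -1.65 on the log2 scale (standard error 0.71, edgeR's adjusted p = 0.325). Both wild boar ULB libraries lay below the Bama pig library for UCP2, an order shown by 38.3% of genes. For the interaction of depot and breed, 0 of 7 members were called by edgeR or DESeq2, beside 0% and 0.291% of genes, and none had an unadjusted p below 0.05, against 4.86% of genes.

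**Figure D3:**
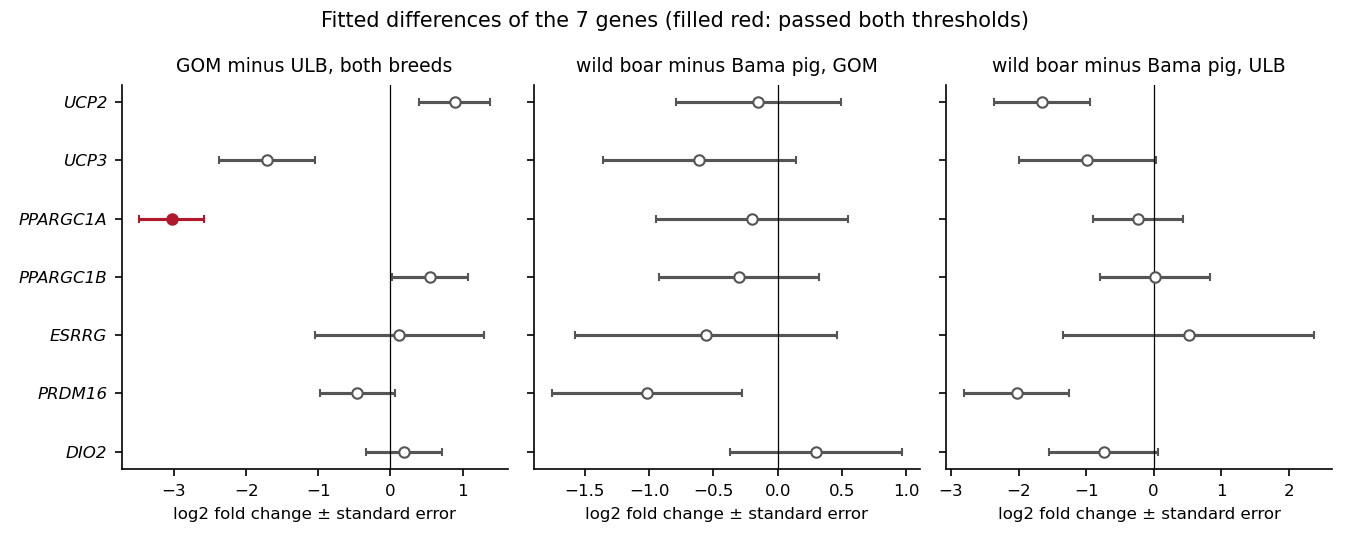
Fitted log2 fold changes of the 7 genes with standard errors for GOM minus ULB over both breeds, and for wild boar minus Bama pig in GOM and in ULB. PPARGC1A at -3.03 in the first panel is the only filled point, the only one past both thresholds.

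The wider program was described with lists of related genes, given as counts. Of 27 tested brown and beige adipocyte genes, 1 was higher and 2 were lower in GOM, beside 1.78% and 1.05% of all genes, with a median log2 difference of 0.11, beside 0.04 over all genes. BMP7, a secreted inducer of brown fat, stood at 3.97 to 13.26 TPM in GOM and 0.03 to 2.91 TPM in ULB (log2 difference 4.90, standard error 0.71, adjusted p = 0.00994). ZIC1, used as a marker of classical brown fat and a patterning factor, was listed at 0 in all 4 GOM libraries and stood at 2.59 to 23.04 TPM in ULB (adjusted p = 0.00365). HOXC9, a patterning gene also used as a marker of white and beige fat, was lower in GOM, 0 to 0.40 against 3.49 to 6.96 TPM (log2 difference -4.44, standard error 0.77, adjusted p = 0.019). TMEM26, a beige cell marker, did not pass, at 0.39 to 2.96 TPM in GOM and 0.43 to 0.56 TPM in ULB (log2 difference 1.65, adjusted p = 0.259 from edgeR's test).

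On the input side, 1 of 20 adrenergic and thyroid hormone genes was called, beside 2.83% of all genes. ADCY3, an adenylyl cyclase that makes cyclic AMP, was higher in GOM, 8.83 to 13.61 TPM against 2.49 to 3.97 TPM (log2 difference 1.77, standard error 0.29, adjusted p = 0.0151), opposite in direction to PPARGC1A. THRSP, a thyroid hormone responsive lipogenic gene, had a log2 difference of 1.30 (adjusted p = 0.242), the kinase MAPK14 one of 1.05 (adjusted p = 0.105) and the thyroid hormone receptor THRA one of 0.76 (adjusted p = 0.153). The median of this list was 0.11.

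None of 13 partners in mitochondrial biogenesis was called between depots, and 2 had an unadjusted p below 0.05 in edgeR's test, as had 18.4% of all genes. ESRRA, the estrogen-related receptor paired with PPARGC1A in this program, stood at 6.16 to 38.92 TPM in GOM and 2.78 to 12.75 TPM in ULB (log2 difference 1.87, adjusted p = 0.145). SIRT3, SIRT1 and MFN2 had log2 differences of 0.86, -0.53 and 0.51. Of 16 tested genes listed for heat production without UCP1, none was called. An unadjusted p below 0.05 in edgeR's test was found for 8 of them, again beside 18.4% of all genes. The list covers calcium cycling, creatine cycling and mitochondrial carriers of the SLC25 family. ATP2A1, the calcium pump of fast muscle, reached 20.0 TPM in wild boar ULB replicate 1 and 0.62 TPM or less elsewhere. The mitochondrial creatine kinase of muscle, CKMT2, was also highest there, at 5.87 TPM against 0.41 to 1.31 TPM. ALPL and CKB, the phosphatase and the creatine kinase of the futile creatine cycle in fat, had log2 differences of 2.29 (adjusted p = 0.271) and 1.36 (adjusted p = 0.255). None of these 4 lists had a called gene between breeds in GOM or in ULB.

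Among the marker lists, genes called between depots were KRT8, BNC1 and WT1 of 4 mesothelial genes tested and CD2 of 8 lymphocyte genes, all higher in GOM. No gene was called among 10 adipocyte, 8 skeletal muscle, 11 macrophage, 6 endothelial and 9 liver genes. Between breeds, the liver transcripts APOB in GOM and ALB in ULB were called, both lower in wild boars. The liver list as a whole had a median log2 difference of -4.83 in GOM, where 7 of 9 had an unadjusted p below 0.05 in edgeR's test, and of -3.0 in ULB, where 6 of 9 had, beside medians over all genes of -0.01 and 0. ALB stood at 6.6 and 4.19 TPM in wild boar GOM and at 292.99 and 873.47 TPM in Bama pig GOM. The part of these transcripts in the members' values was not tested.

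For the 5 members with a mean TPM of at least 1, the genes whose log2 CPM followed them most closely over the 7 libraries were taken from 11516 genes, as a description in which all values share libraries. For PPARGC1A they were EN1, RGS7BP and SPOCK1, with Pearson's r of 0.997, 0.989 and 0.989. The homeobox gene EN1 stood at 0.00 to 0.14 TPM in GOM and 3.16 to 7.12 TPM in ULB, and RGS7BP at 0.53 to 0.99 and 4.58 to 6.82 TPM. For UCP2 they were SSBP3, MINK1 and USP42 (0.995, 0.991 and 0.988), each highest in Bama pig GOM replicate 1. For UCP3 they were C16orf87, NAV3 and SALL2 (0.984, 0.976 and 0.969), each lowest in wild boar GOM replicate 2. PPARGC1B was followed by NNMT, TRAPPC14 and PDCD1LG2 (0.982, 0.974 and 0.971), and DIO2 by SIRT4, GRAMD1C and HEY2 (0.956, 0.948 and 0.905).

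Chromatin compartments were read from PC1, the first principal component of the Hi-C contact matrix in 20-kb bins. In the paper, Hi-C nuclei came from the adipocyte layer left on top after centrifugation, and RNA from each sample. PC1 and TPM therefore need not describe the same cells. Positive values mark compartment A, which is rich in active genes, and negative values compartment B. At the bin of the gene's 5′ end, 6 of 8 members were positive in all 7 libraries, beside 72.0% of 18691 start-site bins. PPARGC1B had the highest values, 76.3 to 87.7, at or above the 98.9th percentile of its chromosome. CIDEA (chr6:97253074-97268355) followed with 40.2 to 58.2, UCP3 with 31.7 to 40.6, UCP2 with 26.7 to 44.1 and PRDM16 with 17.8 to 34.0. DIO2 was negative in all 7 libraries, from -43.0 to -29.4, beside 15.3% of start-site bins. No member had one sign in all GOM and the other in all ULB libraries over both breeds, as 0.540% of start-site bins had, and none changed its sign between breeds in ULB, beside 2.54%.

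PPARGC1A had 2 readings. At its 5′ end, PC1 was 25.3, 20.4, 26.9 and 20.1 in GOM and 15.7, 15.5 and 11.9 in ULB, so that all GOM libraries lay above all ULB libraries, an order shown by 9.21% of start-site bins and opposite to that of its TPM. At the start of the curated transcript, PC1 was 3.8, -3.6, -12.0 and -14.7 in GOM and -3.8, -9.1 and -8.5 in ULB, and the depots overlapped. Of the 35 bins over the gene, 26 were negative in every library and 1 was positive in every library. Taking the curated start or the mean over the gene body moved the count of members positive everywhere from 6 to 5.

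ESRRG was the member that switched. In GOM, PC1 at its 5′ end was -23.4 and -26.0 in wild boars and 3.4 and 18.8 in Bama pigs, and in ULB it was -32.0 and -27.4 in wild boars and -29.3 in the Bama pig, so that within Bama pigs its sign also differed between depots. It changed from B in wild boars to A in Bama pigs in GOM, beside 1.72% of start-site bins, and 21 of its 34 bins did so. On chromosome 10, however, 29.7% of all bins switched in GOM, against 1.54% on the other autosomes, and 105 of 400 genes with a start-site bin there switched. The Bama pig replicates also differed along the gene, with a mean PC1 of 1.6 and 22.1. The expression of ESRRG in GOM overlapped between breeds (log2 difference -0.56, standard error 1.02).

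**Figure D4:**
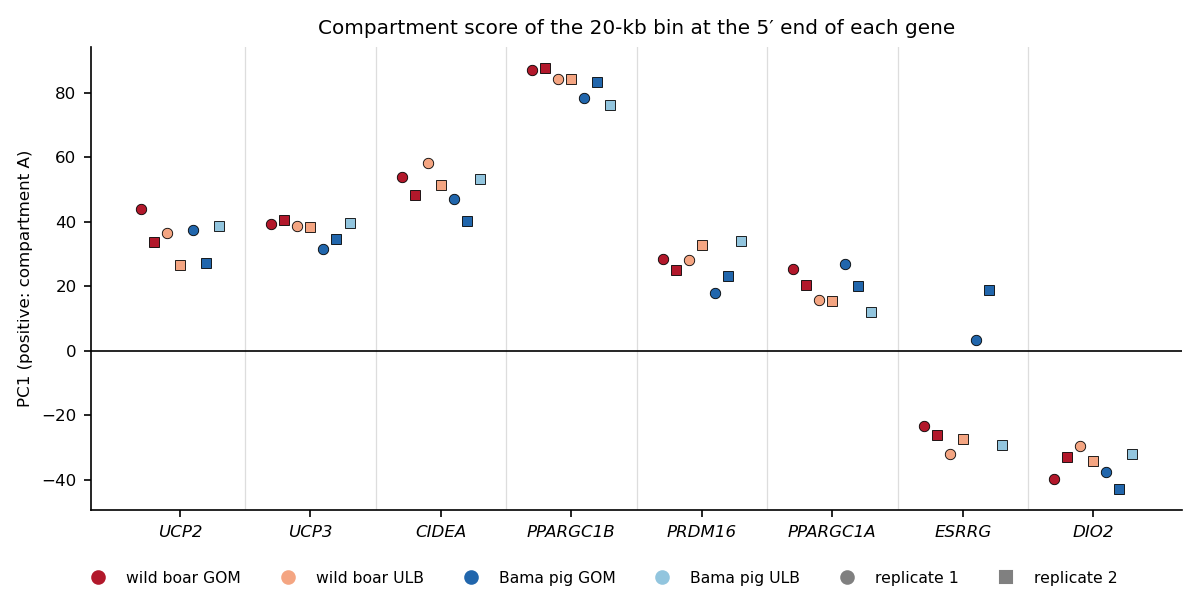
PC1 of the 20-kb bin at the 5′ end of each of the 8 genes, 1 point per Hi-C library; values above 0 mark compartment A. All 7 points lie above 0 for 6 genes and below 0 for DIO2, and for ESRRG the Bama pig GOM points, 3.4 and 18.8, are the only positive ones.

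**Figure D5:**
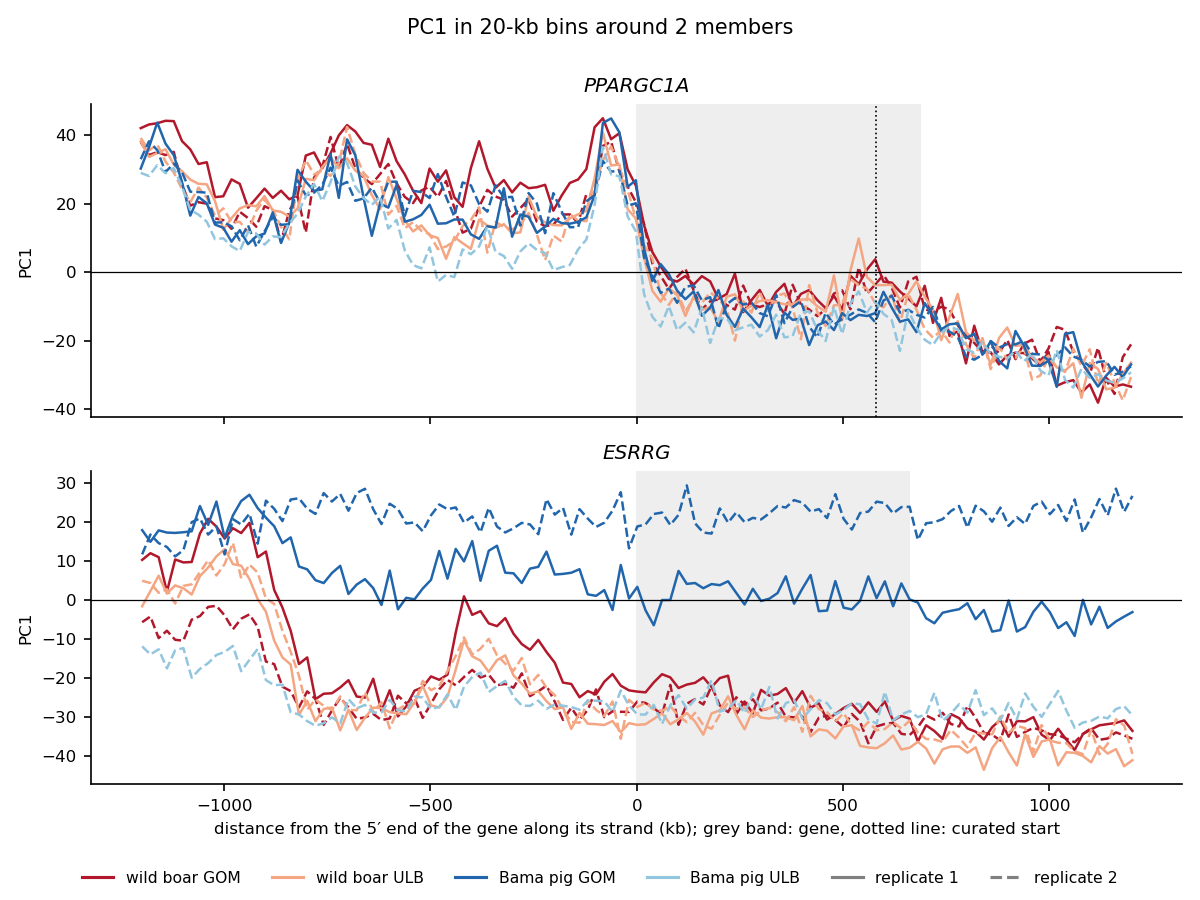
PC1 along 20-kb bins around PPARGC1A and ESRRG by distance from the 5′ end of the gene, 1 line per library, with the gene as a grey band and the curated start of PPARGC1A dotted. The lines of PPARGC1A fall from above 0 at the 5′ end to mostly below 0 inside the gene, where 26 of 35 bins are negative in every library, and across ESRRG both Bama pig GOM lines run above the other 5.

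Topologically associating domains (TADs), stretches within which contacts are frequent, were called by the authors on merged replicates, 1 list per breed and depot. The lists therefore carry no replicate check. For Bama pig ULB, the paper's pair of replicates included a library from an earlier study, which was not among the libraries analysed here. The domain around the curated PPARGC1A start ran from 17280001 to 18500000 on chromosome 8 in ULB of both breeds, 1220 kb. In GOM it ran from 17760001 to 18500000 in wild boars and to 18480000 in Bama pigs, 740 and 720 kb. The 5′ end of the gene, at 18527953, lay beyond this domain in all 4 lists, and so did its PC1 bin. With edges matched within 40 kb, a tolerance chosen after the data were seen, the domains of PPARGC1A, DIO2 and ESRRG agreed between breeds within each depot and differed between depots, 3 of 8 members beside 4.51% of 18691 start sites. For DIO2 the domain was 340 and 300 kb in GOM and 800 kb in both ULB lists. For ESRRG it was 560 and 620 kb in GOM and 660 kb in both ULB lists, with starts at 6980001 and 6940001 in GOM and at 6880001 in ULB. The GOM starts of DIO2 were 102900001 in wild boars and 102940001 in Bama pigs. For DIO2 and ESRRG the GOM domains thus matched between breeds only at the limit of the 40 kb tolerance, and no other tolerance was run. UCP2 and UCP3 lay in 1 domain together in wild boar GOM and Bama pig ULB (660 and 880 kb) and in none in the other 2 lists, whereas PPARGC1B, PRDM16 and CIDEA lay in a domain in all 4. For 28.5% of the 18691 start sites, at least 1 list held no domain.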

How the data were processed

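Estimated counts and TPM of 7 RNA-seq libraries, PC1 of 7 Hi-C libraries and 4 TAD lists were analysed. The authors ran Kallisto (0.43.0 in the submitters' notes) on protein-coding genes of Sscrofa 11.1, and deposited an estimated count and a TPM per gene and library. They deposited a score per 20-kb bin named A-B index, which has mean 0 on each chromosome and was read as PC1. The authors deposited TADs from the directionality index and insulation score, on merged replicates.

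Counts were rounded and tested with edgeR 4.0.16 (quasi-likelihood, TMM, Benjamini-Hochberg) in R 4.3.3, as 4 breed and depot groups, or on the GOM libraries for breeds in GOM. Genes needed a TPM above 0.1 in every library of at least 1 group. Calls required an adjusted p under 0.05 and a log2 fold change exceeding 1 in size. DESeq2 1.42.0 and limma 3.58.1 were alternatives. Tests were two-sided and treated libraries as independent. On simulated data with 200 genes changed 8-fold, 95.0% were recovered for the depots, 82.5% for breeds in GOM, 67.8% for breeds in ULB and 44.2% for the interaction, with 12.0%, 10.8%, 6.9% and 11.1% false calls.

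The members and lists were chosen with earlier results of these data known. Genes named beside the members were those called in a comparison, the 4 of each list with the largest depot difference at a mean TPM of at least 1, and the 3 most like each member. PC1 has no counts, so its depth is unknown. Positions and sequences came from RefSeq on Sscrofa 11.1, with 18 of 18 autosomes of the same length.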

Additional observations from a re-analysis of the deposited data

Results flagged for a closer look

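These results of 2 genes were singled out because the groups lay in opposite orders, and neither difference was tested. UCP3 PC1 at the 5′ end was higher in wild boars than in Bama pigs in GOM, by 6.7 on average, and lower in ULB (-1.1), and its GOM minus ULB difference was 1.4 in wild boars and -6.4 in Bama pigs. PRDM16 PC1 was higher in wild boars in GOM by 6.4 and lower in ULB (-3.6). Opposite breed orders were found in 2252 and opposite depot orders in 1597 of 18691 start-site bins. All values are positive, and ULB rests on 1 Bama pig library.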

How the results depend on the processing

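PPARGC1A was called between depots under every alternative run, with log2 differences from -3.26 to -2.72. Members called between depots numbered 2 with the replicate block, which added UCP3 (-1.63, adjusted p = 2.09e-06), and members called for the interaction numbered 1 (UCP2, 2.68, adjusted p = 0.0418). In each of the 3 same-numbered pairs of libraries, UCP3 was higher in ULB. Both depots came from the same animals, but the numbers are not stated to mark them, and the deviations of same-numbered wild boar libraries correlated at 0.154 between depots with no second such pair to check, so the block was not taken as a pairing. With the block, 15 genes were called between breeds in GOM, 2162 between depots and 581 for the interaction, against 4, 505 and 0 without it. DESeq2 called 167, 1249, 418 and 52 genes between breeds in GOM, between depots, between breeds in ULB and for the interaction, and without a filter 26, 896, 197 and 7 were called. The ULB libraries alone gave 181 genes between breeds in ULB, against 45. Leaving out 1 library gave 0 to 123 genes between breeds in GOM, 249 to 831 between depots, 0 to 106 between breeds in ULB and 0 to 1 for the interaction. The cause was not tested.

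Of 309 log2 values of members under alternatives, 33 changed sign, none of them called. With the block these were UCP2 in GOM between breeds (0.09), ESRRG between depots (-0.51), and UCP3 (-0.05) and ESRRG (1.71) for the interaction. ESRRG between depots was -0.01 in the additive fit, and PPARGC1B between breeds in ULB was -0.11 with upper-quartile scaling and -0.04 at a TPM above 1. With 1 library left out, breeds in GOM ranged from -0.77 to 1.02 for UCP2, -2.52 to 0.17 for UCP3, -0.58 to 0.24 for PPARGC1A, -1.40 to 0.29 for PPARGC1B, -0.44 to 0.77 for DIO2 and -1.36 to 1.46 for ESRRG. Depots ranged from -0.16 to 0.59 for DIO2 and -0.89 to 3.57 for ESRRG, and breeds in ULB from -0.69 to 0.12 for PPARGC1A, -0.92 to 0.58 for PPARGC1B and -6.38 to 1.5 for ESRRG. The interaction ranged from -1.53 to 1.93 for UCP3, -0.34 to 0.50 for PPARGC1A, -1.40 to 0.64 for PPARGC1B and -2.05 to 5.82 for ESRRG. The mean over the gene body, and the start of the curated transcript, an alternative chosen after seeing the data, each left 5 members positive in PC1 everywhere, against 6. Upper-quartile scaling moved the median of all genes between breeds to -0.140 in GOM and -0.119 in ULB. No block could be fitted between breeds in ULB, and no depot fit without Bama pig ULB.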
